A study of Homo sapiens with 3 samples.

Results

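Genes that guide B cells to follicles and hold them there were described in 3 RNA sequencing libraries of OCI-Ly10 cells, a line established from a human diffuse large B cell lymphoma, after 6 h with MZ1. MZ1 couples a binder of BET bromodomain proteins to a recruiter of the VHL ubiquitin ligase and so marks BET proteins for breakdown. The genes were taken from a list of 10 chemokine receptor, GNA13 pathway and adhesion genes, matched by Ensembl ID without its version to GENCODE 29 symbols, and 9 of them are among the 15808 genes of the count table. P2RY8 was not analysed here. All 3 libraries carry the same label (OCILy10, MZ1, 6 h), so levels and their spread between libraries are given and no effect of MZ1 was estimated. Separate cultures are not stated for the replicates, so each p-value describes only these libraries, whose spread may be technical. Chi-square p-values concern whether the counts of a gene differ from 1 common level in the libraries. They depend on the number of counts as well as on the spread, so they do not rank genes by spread. Permutation p-values concern the log2 ratio of a pair of genes. The values describe 1 cell line.

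In lymphoid tissue, CXCR4 draws B cells toward the chemokine CXCL12 of the germinal centre dark zone, CXCR5 toward CXCL13 of the follicle and CCR7 toward CCL19 and CCL21 of the T cell zone. GPR183 reads oxysterols at the outer follicle. GNA13 is the G protein alpha subunit through which the receptors P2RY8 and S1PR2 act on ARHGEF1, an exchange factor that activates the GTPase RHOA and keeps germinal centre B cells confined. CD69 removes the egress receptor S1PR1 from the surface, CD44 binds hyaluronan, and ITGA4 is the alpha chain of integrins that bind VCAM1 or fibronectin.

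Promoter sequence from RefSeq (GRCh38.p14) was matched for 7 of the 9 genes. It is shown for 2 receptor genes whose levels per length were among the higher ones here, CXCR4 and CXCR5, and for GPR183, the receptor gene with the lowest level, so that their base composition can be read beside the values. Each sequence is the 250 bases before the annotated start site, written 5′ to 3′ on the strand of the gene. The coordinates are chr2:136118150-136118399 on the minus strand for CXCR4, chr11:118893142-118893391 on the plus strand for CXCR5 and chr13:99307400-99307649 on the minus strand for GPR183. Capitals mark matches on either strand to the GC box GGGCGG, the TATA motif TATAAA and the octamer ATGCAAAT, where matches may overlap.
CXCR4: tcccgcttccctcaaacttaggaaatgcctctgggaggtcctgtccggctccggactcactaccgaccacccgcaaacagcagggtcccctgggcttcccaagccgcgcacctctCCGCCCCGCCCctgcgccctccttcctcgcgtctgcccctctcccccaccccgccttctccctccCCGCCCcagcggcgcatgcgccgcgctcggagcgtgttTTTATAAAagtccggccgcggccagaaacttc
CXCR5: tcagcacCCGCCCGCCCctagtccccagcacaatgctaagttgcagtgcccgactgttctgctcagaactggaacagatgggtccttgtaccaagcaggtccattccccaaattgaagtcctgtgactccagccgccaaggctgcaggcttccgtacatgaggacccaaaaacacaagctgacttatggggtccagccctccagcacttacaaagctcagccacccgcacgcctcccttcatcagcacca
GPR183: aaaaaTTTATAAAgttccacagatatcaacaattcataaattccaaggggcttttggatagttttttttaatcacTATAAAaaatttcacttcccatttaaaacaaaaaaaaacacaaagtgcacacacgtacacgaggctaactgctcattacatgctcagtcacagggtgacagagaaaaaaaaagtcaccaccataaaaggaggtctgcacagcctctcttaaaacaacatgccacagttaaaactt
The window of CXCR4 held 68.0% G and C, with 3 GC box matches and 2 overlapping TATA matches, the first starting at position -32 from the start site. The window of CXCR5 held 57.2% G and C and 2 overlapping GC box matches, and its start site lies 9626 bases inside the GENCODE gene. The window of GPR183 held 34.4% G and C, 3 TATA matches and no GC box. The matched windows not printed held 82.0% G and C for GNA13, 80.0% for ARHGEF1, 72.8% for ITGA4 and 62.4% for CD44. They had 6, 5, 0 and 2 GC box matches in that order. ITGA4 had the lowest level per length of the 9 genes, and a relation of base composition to level was not tested. Among 35116 RefSeq promoter windows of the same length the median was 58% G and C, 42.6% held a GC box, 10.7% a TATA motif and 1.63% an octamer. None of the 3 printed windows held the octamer letters. A match is a description of the sequence and not a measured binding site.

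The libraries held 5474462, 1441246 and 1314812 counts in replicates 1, 2 and 3. Levels are given as CPM, the count scaled to a common TMM library size, where 1 count was worth 0.20, 0.629 and 0.767 CPM. The label of a B cell line was checked with markers. All 5 B cell markers (MS4A1, CD79A, CD79B, PAX5 and CD22) reached 1 CPM in every library and summed to 1532, 1074 and 1864 CPM in replicates 1, 2 and 3. Of 6 T and NK cell markers 2 were in the table and summed to 13.2, 4.40 and 6.14 CPM. Of 6 myeloid markers 3 summed to 40.0, 28.3 and 26.8 CPM, and of 6 stromal and epithelial markers 3 summed to 51.4, 19.5 and 36.1 CPM. The epithelial marker KRT8 had 45.8, 17.6 and 33.8 CPM and the myeloid marker MPO 31.8, 20.1 and 22.2 CPM. The B cell marker CD22, with 53.4, 10.1 and 5.37 CPM, lay below both in replicates 2 and 3. CD79B, at 17.6 CPM in replicate 2, lay below MPO there.

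All 9 genes reached 1 CPM in every library, as did 68.0% of the genes in the table. Their summed share of all counts was 0.199%, 0.153% and 0.140% in replicates 1, 2 and 3. Spread between libraries was tested by chi-square, setting the counts of a gene against those that 1 common level would give, where the mean count was 10 or more, with Benjamini-Hochberg adjustment over all genes tested. The test compares libraries and not conditions. It called 8 of the 8 homing genes that could be tested, beside 67.2% of all 10016 genes tested. GPR183 was below the count minimum. The share called depends on depth. With a mean count of 50 or more the test called 7 of 7 homing genes, beside 81.1% of 5707 genes. With no filter on counts it called 8 of 9, beside 51.0% of 15257 genes. Variation beyond counting noise was thus the usual state in this table, and the size of each difference is given beside its test.

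**Figure D1:**
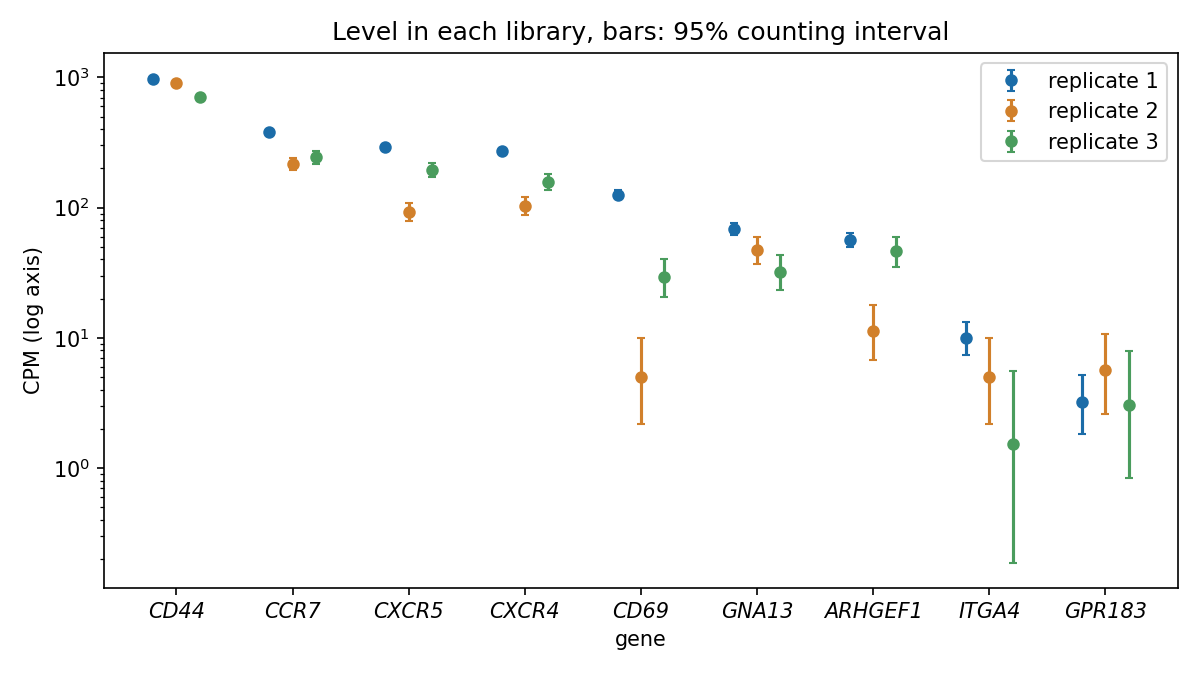
Level of each gene in the 3 libraries in CPM on a log axis, with points for libraries and bars for exact 95% counting intervals. CD44 sits near the top in all 3 libraries at 703 to 973 CPM, CD69 spans 5.03 to 126 CPM, and ITGA4 and GPR183 lie at or below 10.0 CPM.

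The chemokine receptors CXCR4, CXCR5 and CCR7 were all well expressed, and each was highest in replicate 1 and lowest in replicate 2. CXCR4 (ENSG00000121966.6, chromosome 2, 136114349 to 136118165, minus strand) had 273, 104 and 158 CPM in replicates 1, 2 and 3, from 1363, 165 and 206 counts. Its mean was 178 ± 86.2 CPM (SD, n = 3), with 2.63-fold between the highest and the lowest library (chi-square test, adjusted p = 2.25e-39). The 3 counting intervals of CXCR4 did not overlap, at 258 to 287, 88.5 to 121 and 137 to 181 CPM.

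CCR7 (ENSG00000126353.3, chromosome 17, 40553769 to 40565472, minus strand) had 377, 215 and 244 CPM, from 1888, 342 and 318 counts, a mean of 279 ± 86.7 CPM (SD, n = 3). Replicate 1 stood above the others, whose intervals overlapped. The spread was 1.76-fold (chi-square test, adjusted p = 1.26e-27), and without replicate 1 CCR7 no longer passed (adjusted p = 0.583).

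CXCR5 (ENSG00000160683.4, chromosome 11, 118883766 to 118897799, plus strand) had 294, 93.0 and 195 CPM, from 1469, 148 and 254 counts, a mean of 194 ± 100 CPM (SD, n = 3). The spread was 3.16-fold (chi-square test, adjusted p = 1.62e-46). Of its 4431 exon bases, 3925 (88.6%) overlap exons of BCL9L on the opposite strand, a gene for a WNT pathway coactivator. BCL9L had 4.40, 35.8 and 127 CPM in replicates 1, 2 and 3, from 22, 57 and 166 counts, so it was lowest where CXCR5 was highest. Of the sum over both genes, BCL9L took 1.48%, 27.8% and 39.5%. The sums were 298, 129 and 322 CPM, highest in replicate 3 and not in replicate 1. A larger share in replicates 2 and 3 than in replicate 1 was not particular to BCL9L. The antisense gene of ICAM3 took 3.35%, 41.7% and 45.5% of its sum with ICAM3, and that of MYL12A 0.539%, 18.1% and 22.9%. It did not hold for every pair, as the gene opposite VCL took 66.8%, 54.8% and 92.1%. Whether counting used strand was not given in the sources used here. Without strand the reads of CXCR5 and BCL9L cannot be told apart. The part of BCL9L in the level of CXCR5 was not tested.

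GPR183 (ENSG00000169508.6, chromosome 13, 99294530 to 99307405, minus strand) was low in all 3 libraries, with 3.20, 5.66 and 3.07 CPM from 16, 9 and 4 counts and a mean of 3.97 ± 1.46 CPM (SD, n = 3). It was the only 1 of the 9 genes whose highest value was not in replicate 1. The counting intervals overlapped, at 1.83 to 5.19, 2.59 to 10.7 and 0.836 to 7.86 CPM, and no difference between libraries was detectable at this depth. With no filter on counts the chi-square test gave an adjusted p of 0.439.

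The genes of the confinement pathway were expressed at intermediate levels. GNA13 (ENSG00000120063.8, chromosome 17, 65010715 to 65056839, minus strand) had 68.2, 47.1 and 32.2 CPM, from 341, 75 and 42 counts, a mean of 49.2 ± 18.1 CPM (SD, n = 3). It was highest in replicate 1 and lowest in replicate 3, a 2.12-fold spread (chi-square test, adjusted p = 4.03e-06). Without replicate 1 it did not pass (adjusted p = 0.0569).

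ARHGEF1 (ENSG00000076928.16, chromosome 19, 41883161 to 41930150, plus strand) had 56.6, 11.3 and 46.0 CPM, from 283, 18 and 60 counts, a mean of 38.0 ± 23.7 CPM (SD, n = 3). Replicate 2 stood below the others, a 5.00-fold spread (chi-square test, adjusted p = 9.24e-12). Replicates 1 and 3 had overlapping intervals, and without replicate 2 the gene did not pass (adjusted p = 0.236).

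CD69, the retention gene, varied most. CD69 (ENSG00000110848.7, chromosome 12, 9752486 to 9760901, minus strand) had 126, 5.03 and 29.2 CPM, from 629, 8 and 38 counts, a mean of 53.3 ± 63.9 CPM (SD, n = 3). The 3 intervals did not overlap, and the highest and lowest library differed by a factor of 25.01 (chi-square test, adjusted p = 1.25e-56). The SD of its log2(CPM + 0.5) was 2.26, above that of 98.4% of the 7510 genes whose mean was 10 CPM or more.

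CD44, the hyaluronan receptor, was the steadiest of the 7 genes of at least 10 CPM. CD44 (ENSG00000026508.15, chromosome 11, 35138870 to 35232402, plus strand) had 973, 904 and 703 CPM, from 4869, 1439 and 916 counts, a mean of 860 ± 141 CPM (SD, n = 3). Its mean CPM ranked 135 in the table, and only 17.5% of the genes of at least 10 CPM had a smaller SD. The 1.39-fold spread still passed the test (chi-square test, adjusted p = 6.81e-18). CD44-AS1, which overlaps 84 of its exon bases on the opposite strand, had 0, 23 and 47 counts.

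ITGA4 (ENSG00000115232.12, chromosome 2, 181457202 to 181536187, plus strand) had 10.0, 5.03 and 1.53 CPM, from 50, 8 and 2 counts, a mean of 5.52 ± 4.25 CPM (SD, n = 3). The interval of replicate 3 reached from 0.186 to 5.54 CPM and did not overlap that of replicate 1, 7.42 to 13.2 CPM, while replicate 2 overlapped both. ITGA4 passed the test (chi-square test, adjusted p = 0.00596) but not without replicate 3 (adjusted p = 0.105), and without replicate 1 it was below the count minimum.

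Of the genes of at least 10 CPM, all 7 were highest in replicate 1, beside 43.1% of all genes at that level, and 5 of 7 (CXCR4, CXCR5, CCR7, CD69 and ARHGEF1) ran in the order replicate 1, replicate 3, replicate 2, beside 28.1%. Scaled by column totals, 6 of 7 were highest in replicate 1, beside 34.7% of all genes, and CD44 was highest in replicate 2, with 889, 998 and 697 CPM. CD44 and GNA13 were lowest in replicate 3, so between replicates 2 and 3 they went against the other 5 genes. The median SD of log2 values was 0.70 over the 7 genes and 0.49 over all 7510. These are descriptions of 3 libraries. Without replicate 1, the chi-square test called 5 of 7 homing genes tested (CXCR4, CXCR5, ARHGEF1, CD69 and CD44), beside 33.8% of all genes tested.

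Differences between the libraries also followed GC content over the genes of at least 10 CPM, so each gene was set beside the median of its GC bin. The 8 equal bins were made from genes of at least 10 CPM by the GC content of the longest transcript. ITGA4 and GPR183, below that level, did not enter the medians. ARHGEF1, with 63.6% GC, differed by -2.27 (log2) between replicates 2 and 1, where its bin had a median of -1.35. CCR7, with 55.0% GC, differed by -0.81 beside a bin median of -0.82. CXCR5, with 58.2% GC, differed by -1.65 in the same bin. Between replicates 3 and 1 ARHGEF1 differed by -0.29, CCR7 by -0.63 and CXCR5 by -0.59, where both bins had a median of -0.26. These 3 genes differed in the same direction as their bins, and CCR7 lay near its bin median only between replicates 2 and 1.

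CXCR4, CD69 and GNA13 are less GC-rich, and the medians of their bins lay near or above 0. CXCR4, with 43.9% GC, differed by -1.39 between replicates 2 and 1 and by -0.78 between replicates 3 and 1, where its bin had medians of 0.01 and -0.04. CD69, with 36.5% GC, differed by -4.51 and -2.09, where the medians were 0.29 and 0.11. GNA13, with 40.5% GC, differed by -0.53 and -1.07, where they were 0.26 and 0.05. In the bin of CXCR4, CD44 differed by -0.11 and -0.47 and ITGA4 by -0.93 and -2.37. In the bin of CD69, GPR183 differed by 0.735 and -0.05. With library sizes corrected by GC bin, a correction chosen after seeing the data, 8 of 8 homing genes still passed the chi-square test, beside 61.0% of all genes tested, with adjusted p = 0.0324 for ARHGEF1, 2.17e-04 for CCR7 and 6.27e-39 for CXCR4.

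**Figure D2:**
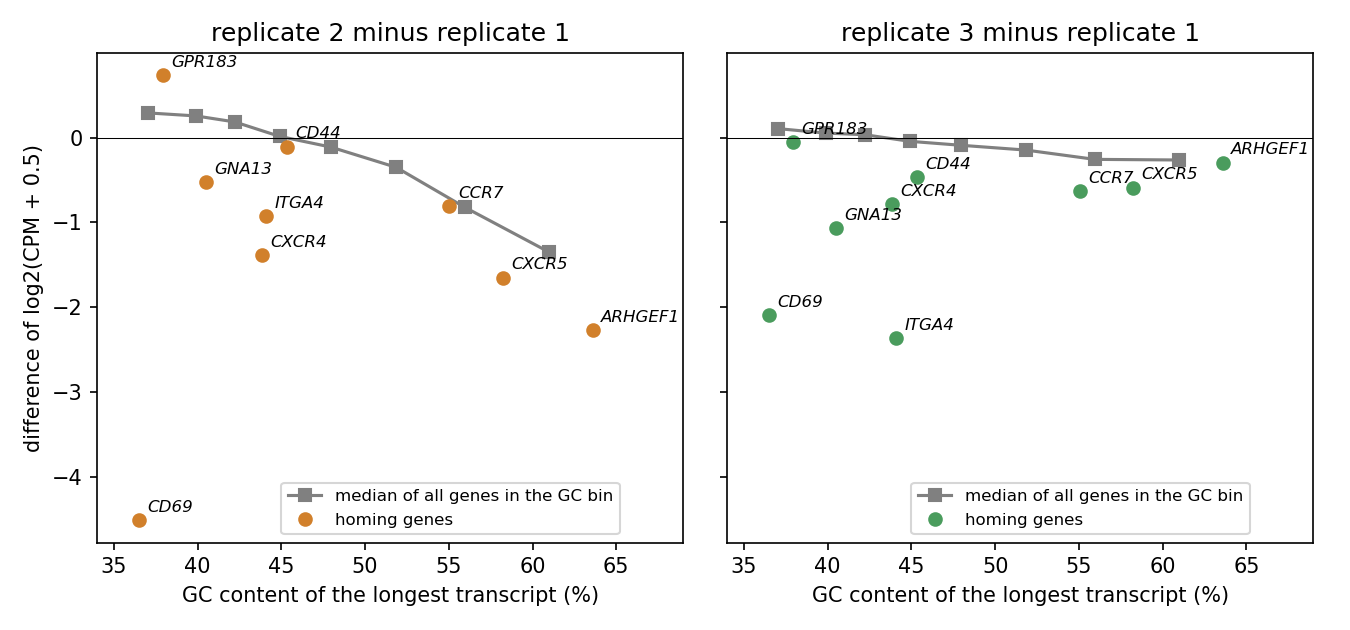
Difference of log2(CPM + 0.5) of replicate 2 (left) and replicate 3 (right) from replicate 1 against the GC content of the longest transcript in percent. Coloured points are the homing genes, and grey squares the median of all genes of at least 10 CPM in each of 8 GC bins. In the left panel CD69 lies at -4.51 and CXCR4 at -1.39 below flat bins, while CCR7 at -0.81 lies on the falling line.

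Levels of different genes were compared as CPM per kb of merged exons. In this order CCR7 had 111 ± 34.6, CD44 86.0 ± 14.1, CXCR4 80.1 ± 38.7, CXCR5 43.8 ± 22.6, CD69 18.8 ± 22.6, GNA13 9.64 ± 3.54, ARHGEF1 4.40 ± 2.74, GPR183 2.34 ± 0.858 and ITGA4 0.699 ± 0.538 CPM per kb (SD, n = 3 for each). The highest mean was 159 times the lowest. The values of the 3 libraries overlapped between neighbours in 7 of 8 cases and were apart only for GPR183 over ITGA4, where ITGA4 rested on as few as 2 counts. No neighbouring pair passed the exact permutation test (two-sided, flipping signs of the log2 ratios), whose smallest p with 3 libraries is 0.25. Further apart in the order the separation was clearer, and 26 of 36 pairs of genes had no overlap. CCR7 and CD44 each lay above CXCR5 and all genes below it in every library, and CXCR4 above CD69 and all genes below it. CD69 overlapped every gene between CXCR4 and ITGA4, from CXCR5 down to GPR183.

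**Figure D3:**
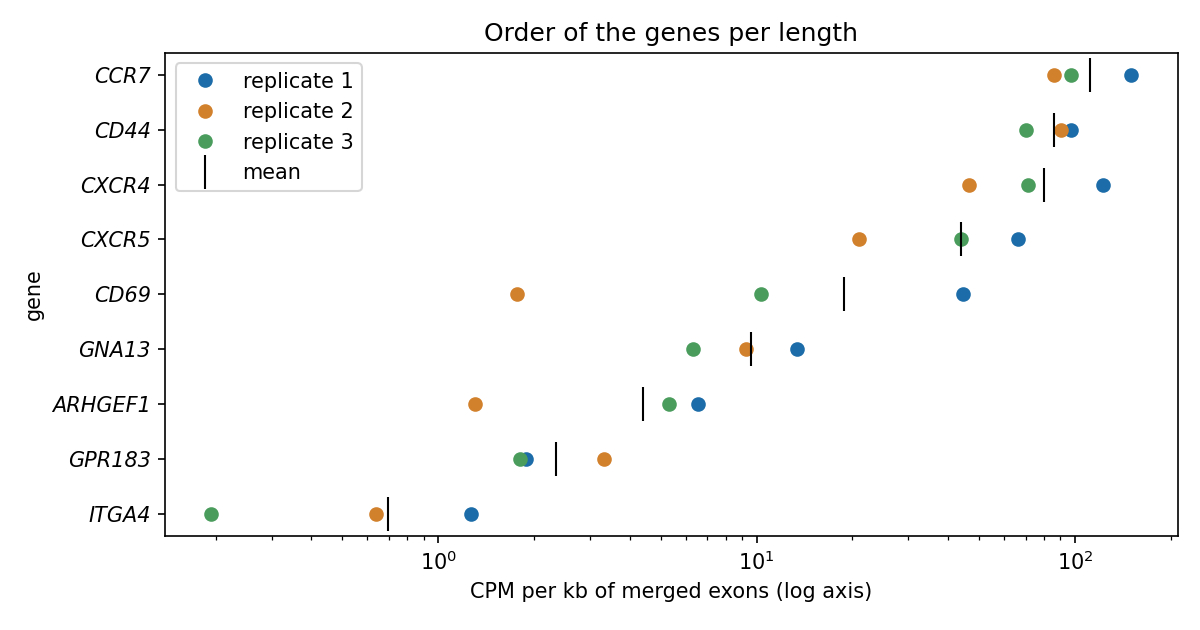
CPM per kb of merged exons on a log axis for each gene, ordered by the mean, with coloured points for libraries and a bar for the mean. CCR7, CD44, CXCR4 and CXCR5 lie above 20 CPM per kb in all libraries, and CD69 reaches across the levels of 4 other genes.

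Genes that act together or in place of each other were set against each other as log2 ratios per kb, for 14 pairs. None could pass the same exact permutation test, and for the pairs with 1 sign in all libraries p was 0.25 (0.292 after adjustment over the 14 pairs). Among chemokine receptors, CCR7 lay above CXCR5 by 1.45 ± 0.50 (log2, SD) in 3 of 3 libraries, and their values did not overlap. CXCR4 lay above CXCR5 by 0.91 ± 0.23 and below CCR7, at -0.54 ± 0.30, each in 3 of 3 libraries but with overlapping levels. GPR183 lay below CCR7 at -5.41 ± 0.78. ACKR3, the scavenging receptor for CXCL12, had no count, and against the limit of 3 counts per library CXCR4 was at least 461-fold, 55.8-fold and 69.7-fold higher per kb in replicates 1, 2 and 3.

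In the confinement pathway, GNA13 lay above its close relative GNA12 by 2.05 ± 0.34 in 3 of 3 libraries. It lay below the inhibitory subunit gene GNAI2, which chemokine receptors use, at -0.80 ± 0.72, but the ratio was -0.98, -0.00243 and -1.41 in replicates 1, 2 and 3 and the levels overlapped. ARHGEF1 lay above its relative ARHGEF11 by 1.77 ± 1.34 in 3 of 3 libraries, at 2.52, 0.21 and 2.56 in replicates 1, 2 and 3. The small ratio of replicate 2 rests on 18 counts of ARHGEF1 and 16 of ARHGEF11. Against ARHGEF12 the log2 ratio of ARHGEF1 was 1.73, -1.45 and 1.85. The order thus turned in replicate 2, where ARHGEF1 had 18 counts and ARHGEF12 144. GNA13 over ARHGEF1 was 1.35 ± 1.29, in 3 of 3 libraries and with overlapping levels. With the longest transcript of each gene as the length this ratio was 0.0729, with -0.25, 1.49 and -1.03 in replicates 1, 2 and 3, so the order of GNA13 and ARHGEF1 rests on the choice of length.

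Among retention and adhesion genes, CD69 had 629, 8 and 38 counts and S1PR1 1, 0 and 0 in replicates 1, 2 and 3. Over the summed counts the ratio was 1245 per kb, with an exact 95% counting interval of 223 to 49242, and it rests on replicate 1. Against the limit of 3 counts CD69 was at least 4.92-fold higher per kb in replicate 2 and 23.4-fold in replicate 3, and the mean log2 ratio with the pseudocount was 6.50 ± 2.03 over the 3 libraries. S1PR2, which acts through GNA13, had 0, 0 and 1 counts. ITGA4 lay below the beta chain genes it pairs with, by -4.19 ± 0.99 for ITGB1 in 3 of 3 libraries and -0.55 ± 0.84 for ITGB7 in 2 of 3. ITGB7 had 67, 3 and 2 counts, and 42.1% of its exon bases overlap ZNF740 on the opposite strand. Against ITGAL, the alpha chain of LFA-1, ITGA4 lay at -1.36 ± 1.00 with overlapping levels, and at -0.76 with the longest transcript as the length.

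**Figure D4:**
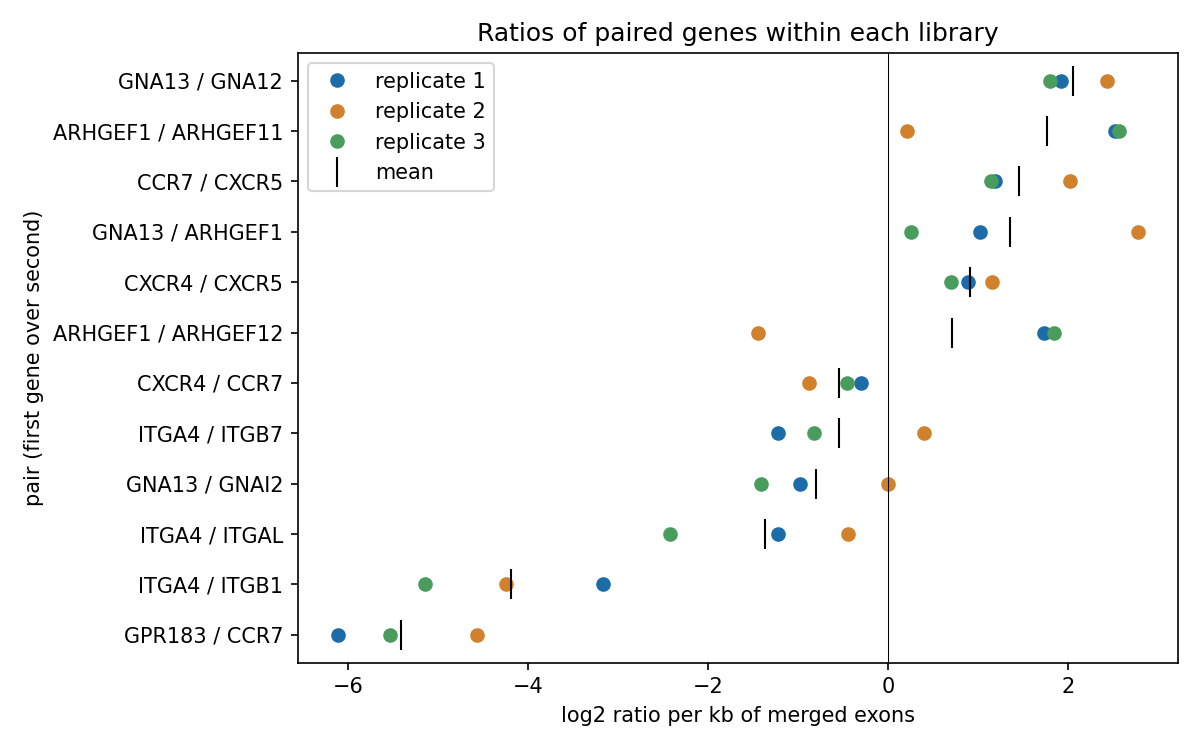
Log2 ratio per kb of merged exons for 12 of the pairs, first gene over second, with coloured points for libraries and a bar for the mean; the pairs with ACKR3 and S1PR1, at or near 0, are left out. GPR183 over CCR7 and ITGA4 over ITGB1 lie far below 0 in all 3 libraries, and ARHGEF1 over ARHGEF12 crosses 0.

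For each homing gene of at least 10 CPM the most similar profile was sought among 64 related genes at that level, by the root mean square difference of centred log2 values over 3 libraries. CXCR4 was closest to the integrin activator TLN1 (0.09), CCR7 to the small GTPase gene RAP1A (0.05), CXCR5 to WAS, an actin regulator (0.03), and GNA13 to SGPP1 (0.06). CD44 was closest to RGS2 (0.06) and ARHGEF1 to ICAM3 (0.12). CD69 had no near match: CORO1A, the closest, was 0.38 away, with 381, 28.3 and 157 CPM. With 3 libraries many genes share a profile by their order alone, so these names describe the libraries.

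Related genes were described by lists chosen for their roles. Of 19 other chemokine and attractant receptors 8 were measured and only 2 reached 1 CPM in every library, the leukotriene receptor LTB4R at 5.56 ± 1.68 and the complement receptor C5AR1 at 4.55 ± 0.667 CPM per kb. CCR10 followed at 0.527 ± 0.613, and CCR9 and ACKR3 had no count, for which the limit of 3 counts corresponds to 0.60, 1.89 and 2.30 CPM in the respective libraries. The chi-square test called 1 of 2. The median was 0.240 CPM per kb, beside 2.22 for all genes with a length. That of the 9 homing genes was 44.4, 9.24 and 10.3 CPM per kb in replicates 1, 2 and 3, higher in replicate 1 than in the others. Each of these medians is the value of 1 gene, CD69 in replicates 1 and 3 and GNA13 in replicate 2, and CD69 varied most. The summed CPM of the 9 genes was 2181, 1390 and 1412.

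Ligands and the enzymes that make or clear them were led by SPP1, the CD44 and integrin ligand osteopontin, at 38.3 ± 14.7 CPM per kb, followed by the exporter gene ABCC1 at 6.59 ± 4.33 and GGT7 at 2.84 ± 2.75. VCAM1 was the lowest at 0.187 ± 0.0793, and CXCL13 had 2, 2 and 0 counts. In this list, 6 of 9 measured genes were at 1 CPM or more throughout, and 5 of 6 tested varied by the chi-square test. The sphingosine 1-phosphate list was lower, with 3 of 9 at 1 CPM in every library and 1 of 2 tested varying. The phosphatase gene SGPP1 had 14.8 ± 6.13, the lyase gene SGPL1 3.93 ± 0.258 and the transporter gene SPNS2 0.741 ± 0.671 CPM per kb. S1PR4 had no count, and KLF2, a transcription factor that activates S1PR1, had 2, 0 and 0 counts.

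In the list of G protein subunits next to GNA13, which also holds RIC8A, a gene that is not a subunit, 12 of 14 genes passed 1 CPM throughout. The list was led by GNG5, GNB1 and GNAS at 56.1 ± 50.9, 26.5 ± 8.82 and 22.7 ± 10.7 CPM per kb, and 10 of 12 tested varied. GNAI2 had 17.6 ± 8.59 and GNA12 2.29 ± 1.02 CPM per kb, and GNA11 had no count. Regulators of receptor signalling were led by RGS10 at 34.1 ± 23.4, RGS1 at 23.3 ± 9.76 and the receptor kinase gene GRK2 at 14.1 ± 11.0 CPM per kb, while RGS18 had 1, 0 and 0 counts. In that list 10 of 14 reached 1 CPM in every library, 6 of 10 tested varied, and 7 of 7 at 10 CPM or more were highest in replicate 1, as the homing genes were.

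RHOA, the GTPase that ARHGEF1 activates, had the highest level of its list at 307 ± 51.6 CPM per kb. The myosin light chain genes MYL12B and MYL12A followed at 150 ± 27.5 and 132 ± 12.9, ARHGEF12 had 2.38 ± 1.17 and ARHGEF11 1.02 ± 0.146 CPM per kb, and RHOB had no count. MYL12A and MYL12B are near-identical in sequence, so the division of their reads is uncertain. Of 24 genes 22 reached 1 CPM in every library and 18 of 22 tested varied. Integrins and adhesion ligands reported here were led by ICAM3 at 17.3 ± 11.3, ITGAX at 12.1 ± 5.66 and ITGB1 at 11.4 ± 2.10 CPM per kb. ITGAL had 1.74 ± 1.14 and ITGB7 1.25 ± 1.51 CPM per kb, and ITGA6 was the lowest at 0.188 ± 0.163. Of the exon bases of ICAM3, 71.2% overlap an antisense gene, which had 13, 15 and 71 counts. In all, 13 of 16 measured genes were at 1 CPM or more throughout and 8 of 12 tested varied. All 12 genes of integrin activation and membrane linkage reached 1 CPM in every library and 12 of 12 varied, led by the linkers EZR at 109 ± 13.2 and MSN at 48.5 ± 16.8 and by TLN1 at 26.1 ± 11.5 CPM per kb, with VCL the lowest at 1.53 ± 1.13.

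**Figure D5:**
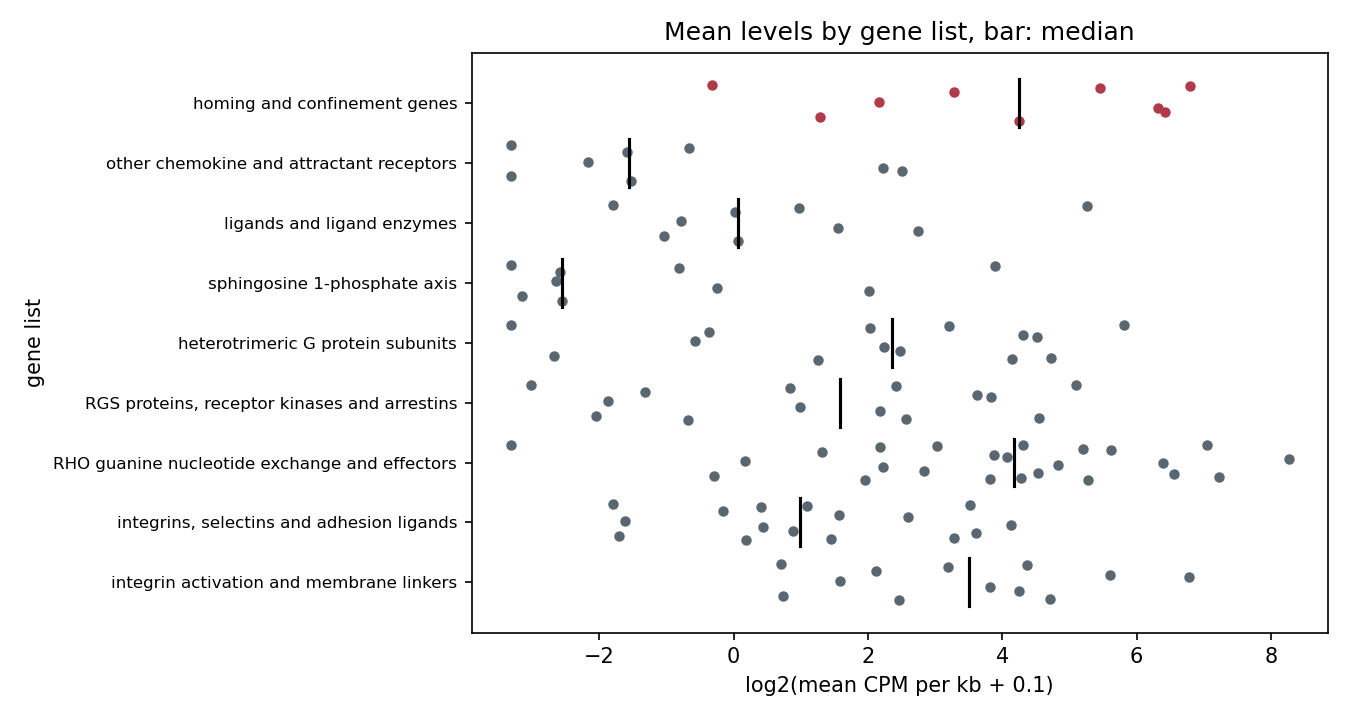
Mean level of each gene on a scale of log2(mean CPM per kb + 0.1), by gene list, with points for genes and a bar for the list median; points at the far left had no count. The 9 homing genes reach from 0.699 to 111 CPM per kb, and most other receptors and sphingosine 1-phosphate genes lie at the low end.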

How the data were processed

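RNA was sequenced from 3 libraries of 1 group. The deposited table of raw read counts came from reads handled with STAR and the hg38 build, per the submitters' processing notes, which also name edgeR; tool versions, how reads were counted, use of strand and the annotation were not given in the sources used here. A second table, of log2 CPM made by the authors, served only as an alternative. Counts were scaled with TMM (edgeR 4.0.16, R 4.3.3; factors 0.914, 1.10 and 0.991) and ratios used a pseudocount of 0.5 CPM, which understates differences of low genes. Symbols, positions, exon lengths, GC content and opposite-strand overlaps came from GENCODE 29 for 15668 IDs. Tests were run in scipy 1.17.1 with a threshold of 0.05, and the chi-square step was tested on simulated data. Intervals are exact Clopper-Pearson 95% intervals; intervals and the limit of 3 counts for a gene with no count cover counting error only. Alternatives were size factors of DESeq2 1.42.0, column totals, other pseudocounts, filters, thresholds and lengths, the deposited values, a GC correction and leaving out each library.

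The members, lists and pairs were chosen with earlier results of these data known. Named were all members, both genes of each pair and the closest profile of each member. The 3 highest and the lowest gene of each related list by CPM per kb were named too. BCL9L, CD44-AS1, ZNF740, the other opposite-strand genes, RIC8A, S1PR2, KLF2, CXCL13 and CCR9 were chosen after their values were seen. Some listed genes and pairs are not reported here.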

Additional observations from a re-analysis of the deposited data

How the results depend on the processing

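All 9 genes stayed at 1 CPM or more under DESeq2 size factors, column totals and without each replicate. At a stricter threshold of 5 CPM in every library, 7 of the 9 genes passed, all but GPR183 and ITGA4. With all libraries 8 of 8 homing genes tested passed the chi-square test (67.2% of all genes tested). Without replicate 1 it was 5 of 7 (33.8% of all genes tested), without replicate 2 7 of 9 (45.2%) and without replicate 3 7 of 9 (56.2%). Mean pair ratios kept their sign in 126 of 126 alternatives and neighbour ratios in 43 of 48. GNA13 over ARHGEF1, though, came to 0.0729 (log2) with the longest transcript length. Library scaling cancels in a ratio within a library except through the pseudocount, so size factors and column totals could hardly change a sign. Alternatives that leave out a replicate reuse the same libraries, so these tallies are not independent checks. CCR7 over CD44 became -0.25 (log2) with the longest transcript length. CD69 over GNA13 ranged from -0.78 to 1.22 and ARHGEF1 over GPR183 from -0.0191 to 1.47 without single replicates, and CD44 over CXCR4 from -0.18 to 0.46. The deposited log2 values gave higher levels, such as 1181 CPM for CD44 and 380 CPM for CCR7. Depth limited GPR183 and ITGA4, with as few as 4 and 2 counts. No paired analysis was possible because the samples form 1 group.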
